A study of Mus musculus with 3 samples.

Results

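The sites described here are meiotic double-strand break hotspots of the CAST allele of Prdm9 that were used about evenly on both homologues. They were taken from a table of 24586 DMC1 hotspots by 5 conditions: an autosomal position, PRDM9 variant CAST, no overlap with a PRDM9-independent H3K4me3 peak, and a B6 share from 0.3 to 0.7 in DMC1 and again in H3K4me3. The B6 share is the fraction of a mark's signal that lies on the C57BL/6J (B6) homologue rather than on the CAST/EiJ (CAST) homologue. Of 12372 autosomal CAST sites, 11408 had no PRDM9-independent peak, 10491 of these had both shares, and 5016 met the conditions on both shares. These 5016 sites are called the symmetric CAST sites, or the members. The members were thus chosen by their measured B6 shares, and these are described below without any test.

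The series' labels describe adult testis, taken whole, of B6xCAST F1 mice with the Prdm9 genotype HUM/CAST, that is, a humanized allele (HUM) beside the CAST allele. DMC1 ChIP-seq was made from 1 male aged 10 weeks and the series' H3K4me3 ChIP-seq from an adult male. The table's header credits its H3K4me3 reads to Li and colleagues, and whether they are that library was not established. The series' MNase-seq library was not analysed here. With 1 library per assay there is no replicate check and no test of any difference between groups of sites. The animals carried both Prdm9 alleles, and whole testis mixes meiotic cells with other germ cells and somatic cells. The table holds no expression values, so tissue markers could not be checked.

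PRDM9 binds DNA through its array of zinc fingers and trimethylates histone H3 at lysine 4 (H3K4me3) on the flanking nucleosomes. Breaks are then made at some of the bound places, and the recombinase DMC1 coats the resulting single-stranded DNA while it searches the homologue for a template. In a hybrid, a base difference in the binding site can leave PRDM9 bound to 1 homologue only. At a symmetric site both homologues can be bound, so the template can be marked as the broken chromosome is. The shares used here are averages over many cells and do not show that both homologues were bound in the same cell.

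The few members centred on a gene start are shown first, because their sequence could be read. Centres of 12 of the 4827 members on the 18 autosomes with promoter windows lay in a RefSeq promoter window, from 250 bases before to 50 after a gene's start (0.249%, exact 95% interval 0.129% to 0.434%). Over all autosomal sites on those chromosomes the share was 0.331%, inside that interval. The upstream parts of the 6 strongest with a centre before the start follow, 5′ to 3′ on the gene's strand (RefSeq, GRCm38.p6, the same build as mm10). Capitals mark up to 20 bases on each side of the deposited DMC1 centre, which the authors' peak caller inferred.

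Gm51500, chr7:133933574-133933823, plus strand: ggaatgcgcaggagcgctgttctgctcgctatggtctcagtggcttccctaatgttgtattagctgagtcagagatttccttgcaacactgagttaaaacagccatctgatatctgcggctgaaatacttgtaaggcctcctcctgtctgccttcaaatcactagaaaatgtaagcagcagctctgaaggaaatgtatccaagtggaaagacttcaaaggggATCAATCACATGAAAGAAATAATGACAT
Gm20190, chr6:126769672-126769921, plus strand: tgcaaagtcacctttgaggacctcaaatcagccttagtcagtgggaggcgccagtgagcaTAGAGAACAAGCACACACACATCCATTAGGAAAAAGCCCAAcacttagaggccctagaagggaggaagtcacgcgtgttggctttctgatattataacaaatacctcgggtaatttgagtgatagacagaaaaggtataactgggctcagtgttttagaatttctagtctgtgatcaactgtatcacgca
Cdhr2, chr13:54701213-54701462, plus strand: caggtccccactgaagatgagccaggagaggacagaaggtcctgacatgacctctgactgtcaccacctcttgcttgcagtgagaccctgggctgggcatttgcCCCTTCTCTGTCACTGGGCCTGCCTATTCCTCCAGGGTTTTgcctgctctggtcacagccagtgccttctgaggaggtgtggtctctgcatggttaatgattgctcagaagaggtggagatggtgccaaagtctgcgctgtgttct
Adipoq, chr16:23146286-23146535, plus strand: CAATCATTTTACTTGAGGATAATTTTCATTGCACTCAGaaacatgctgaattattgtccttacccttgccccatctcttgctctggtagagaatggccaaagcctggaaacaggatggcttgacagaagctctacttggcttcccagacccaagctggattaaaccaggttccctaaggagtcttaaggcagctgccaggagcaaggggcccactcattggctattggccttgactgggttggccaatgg
Gm19277, chr15:85156133-85156382, minus strand: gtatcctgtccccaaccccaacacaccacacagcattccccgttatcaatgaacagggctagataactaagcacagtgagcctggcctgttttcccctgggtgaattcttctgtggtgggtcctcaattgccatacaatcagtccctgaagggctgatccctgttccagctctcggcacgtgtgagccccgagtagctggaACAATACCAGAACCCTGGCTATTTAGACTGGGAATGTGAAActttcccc
5530401A14Rik, chr11:81860427-81860676, plus strand: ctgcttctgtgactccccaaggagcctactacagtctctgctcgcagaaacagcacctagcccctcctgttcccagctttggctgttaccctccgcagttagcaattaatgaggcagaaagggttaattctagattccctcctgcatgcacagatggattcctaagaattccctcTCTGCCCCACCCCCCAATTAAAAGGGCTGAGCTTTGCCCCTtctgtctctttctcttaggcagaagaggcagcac

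Gm51500, Gm20190, Gm19277 and 5530401A14Rik are annotated as long non-coding RNA genes. Cdhr2 encodes a cadherin of the intestinal brush border, and Adipoq encodes the fat hormone adiponectin. The site at Gm51500 had a DMC1 signal of 283 and an H3K4me3 enrichment of 29.0, with B6 shares of 0.432 in DMC1 and 0.569 in H3K4me3. The site at Cdhr2 had the highest H3K4me3 of the 12 (43.0), with DMC1 212 and shares of 0.588 and 0.528. The site at Adipoq had DMC1 183, H3K4me3 26.4 and shares of 0.381 and 0.515. The weakest of the 12 in DMC1 lay at H2-M2, a non-classical class I histocompatibility gene (DMC1 28.1, H3K4me3 8.86). The 12 windows thus held both strong and weak hotspots, and at 9 of them the B6 share was lower in DMC1 than in H3K4me3. It was lower at 65.3% of all members and at 56.3% of all autosomal sites with both shares, so 9 of 12 sets these windows apart in no way. Their GC content had a median of 46.5% (42.7% to 58.0%) against 52.7% over all 32851 windows of the table. Windows with other hotspots had similar medians, 47.8% at the 12 with a CAST site that had both shares and was no member, and 48.0% at the 17 with a HUM site free of PRDM9-independent peaks. The 12 windows with a member had 0 to 7 CpG dinucleotides (median 3.5), against a median of 7 over all windows. The CpG median was 5.5 at the windows with a non-member CAST site and 3 at those with a HUM site. The conditions leave out sites on PRDM9-independent peaks, whose 28 windows had medians of 50.2% GC and 5 CpG. The 13-base motif CCNCCNTNNCCNC, known from the common human PRDM9 variant, was searched on both strands as the only motif. It was in 0 of the 12 windows with a member, in 0 of the 12 with a non-member CAST site, in 4 of those 17 with a HUM site, and in 6.29% of all windows. These counts describe letters in the windows only, and no motif of the CAST variant was searched.

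A further member was centred inside a microRNA hairpin. Mir381 lies on chromosome 12 (109726822 to 109726896, plus strand) in the imprinted Dlk1-Dio3 region, and the DMC1 centre was at 109726886. Its DMC1 signal was 67.0, its H3K4me3 8.44, and its shares were 0.375 and 0.50. The hairpin is given with up to 10 bases on each side of the centre in capitals, which reach its 3′ end.
Mir381 hairpin: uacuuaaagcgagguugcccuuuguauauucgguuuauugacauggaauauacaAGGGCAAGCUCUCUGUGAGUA

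Signal strength was not used to choose the members, and it spanned a wide range. The median DMC1 signal was 90.9 (quartiles 37.0 and 209, from 7.82 to 1139) and the median H3K4me3 enrichment 15.5 (8.29 and 27.4, from 0.90 to 128), in the authors' units. The members were 21.2% of autosomal sites and carried 25.2% of the summed autosomal DMC1 and 24.5% of the H3K4me3. At 2918 members (58.2%) the H3K4me3 value also occurs at another site of the table, against 63.0% over all autosomal sites and 66.3% at CAST sites with both shares that were not members.

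The CAST sites were symmetric most often where H3K4me3 was highest, but not where DMC1 was highest. For this the CAST sites were put in order of strength and divided into 10 groups of equal size. They made up 47.8% of the CAST sites with both shares (exact 95% interval 46.9% to 48.8%), and both shares lay in the window at 43.6% of all autosomal sites that had them. In the group with the lowest H3K4me3, 30.4% were symmetric (27.6% to 33.3%). In the group with the highest H3K4me3, 60.6% were (57.6% to 63.6%). Ordered by DMC1, the percentage was 44.3% in the lowest group, 52.96% in the seventh and 34.2% in the highest (31.4% to 37.2%). In that highest DMC1 group, sites on the B6 homologue alone in both marks (both shares over 0.9) were as frequent, at 34.6%, against 1.33% in the lowest. B6-only sites were 8.58% of the group with the highest H3K4me3. The spread of the measured shares also depended on strength, which moves with these percentages, and its part in them was not tested. Among members the SD of the H3K4me3 share was 0.099 in the lowest of 10 equal groups by H3K4me3 and 0.057 in the highest.

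**Figure D1:**
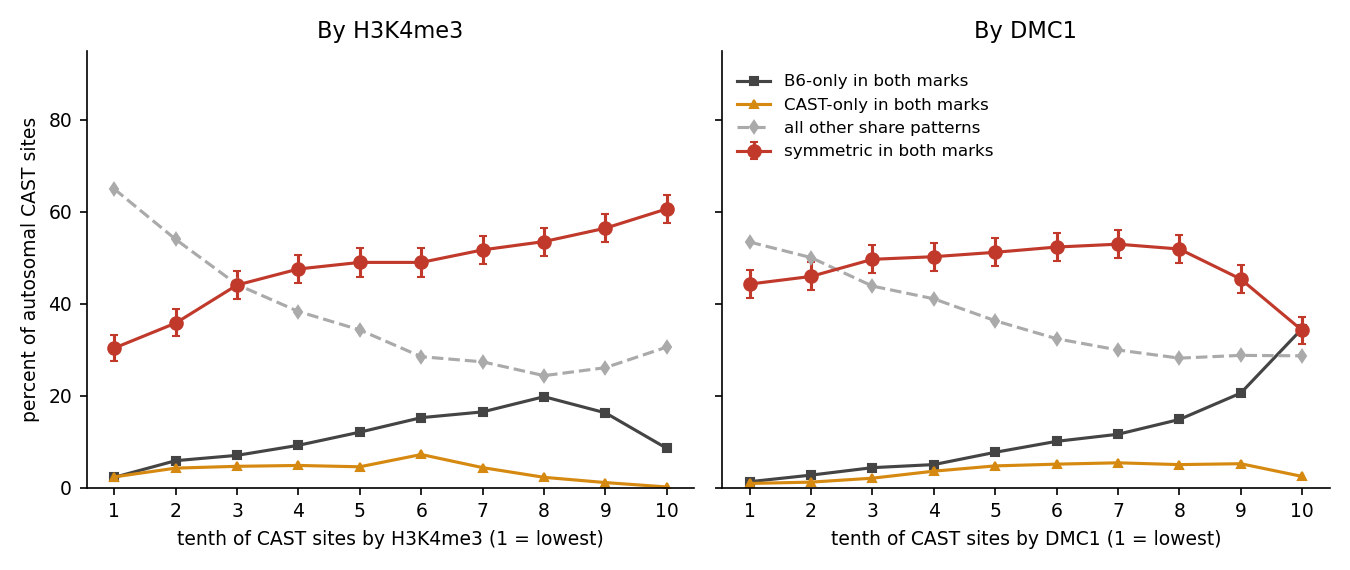
Percent of autosomal CAST sites (no PRDM9-independent peak, both shares given) that were symmetric, B6-only, CAST-only or of another share pattern, in 10 equal groups by H3K4me3 (left) and by DMC1 (right). Bars on the symmetric points are exact 95% binomial intervals. Symmetric sites go from 30.4% to 60.6% with H3K4me3, while in the highest DMC1 group they come down to 34.2%, level with B6-only sites.

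DMC1 followed H3K4me3 across the members, with a Spearman correlation of 0.806 over the 5016 sites. This describes sites of single libraries, all of them called DMC1 peaks, and has no p. The slope of log2 DMC1 on log2 H3K4me3 was 1.06. The ratio of DMC1 to H3K4me3, which has no absolute meaning and was only compared between sites, had a median of 6.24. It was not even along the range of H3K4me3. The median ratio was 6.06 in the lowest of 10 equal groups of members, 4.96 in the second, 8.06 in the ninth and 7.04 in the highest. At symmetric sites of the humanized allele the medians were 5.63, 4.09, 7.09 and 6.17 in the same ranges of H3K4me3, with the lowest, 4.02, in the fourth range, where the members had 5.40.

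**Figure D2:**
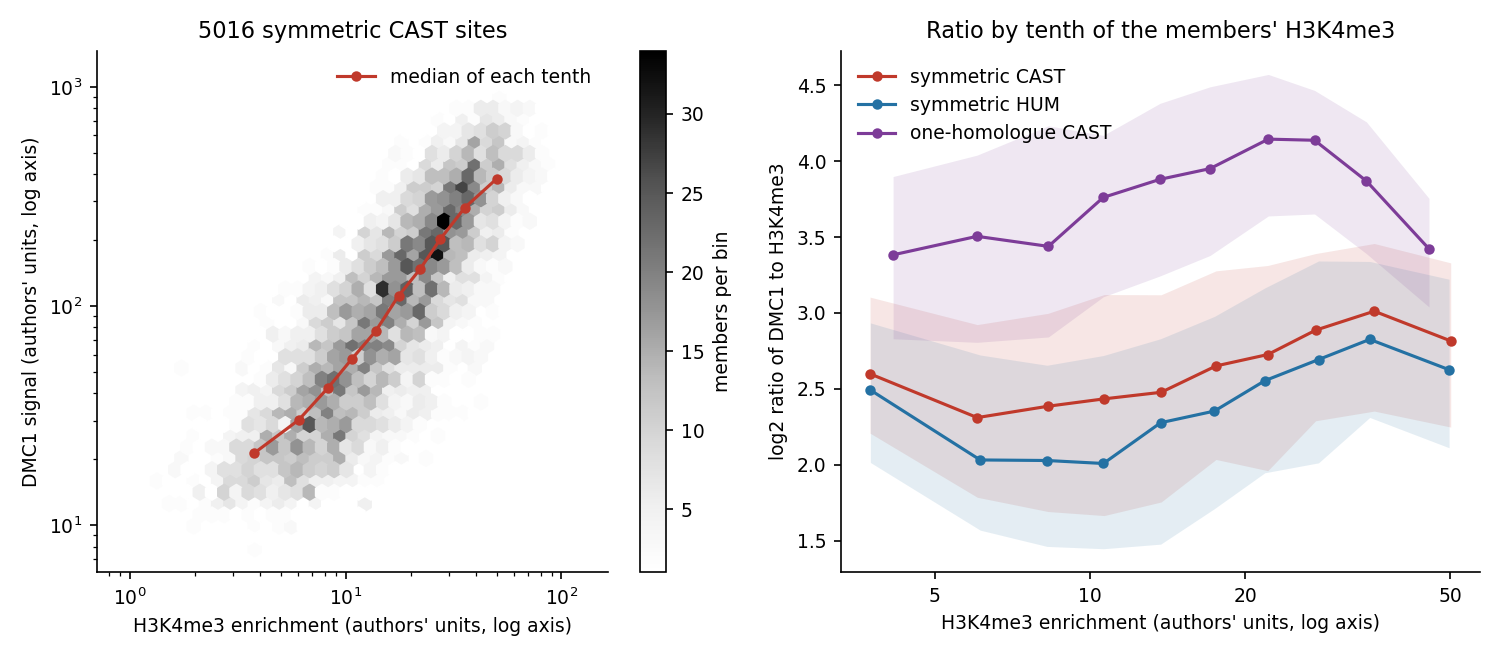
Left: DMC1 signal against H3K4me3 enrichment at the symmetric CAST sites (log axes, shade for the number of members in a bin, line for the medians of 10 equal groups). Right: median log2 ratio of DMC1 to H3K4me3 in 10 ranges of H3K4me3 that divide the members equally, with bands between the quartiles, for symmetric CAST, symmetric HUM and one-homologue CAST sites; the symmetric CAST line runs above the HUM line and below the one-homologue line in all 10 ranges.

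Symmetric CAST sites had less DMC1 for the same H3K4me3 than one-homologue sites of the same allele. The comparison took the 1564 CAST sites with both shares over 0.9 (1186 B6-only) or both under 0.1 (378 CAST-only). Their median DMC1 was 232 and their median H3K4me3 16.1, against 90.9 and 15.5 at the members. The median log2 ratio was 2.64 at the members and 3.82 at one-homologue sites, a difference of -1.18, which is a 2.26-fold higher ratio at one-homologue sites. Within 20 bins of equal H3K4me3 the difference was -1.21. The members were lower on 19 of 19 autosomes, by 0.99 (chromosome 17) to 1.33 (chromosome 15) on the log2 scale. The difference was -1.20 against B6-only and -1.11 against CAST-only sites. The one-homologue sites are the extremes of the 5475 CAST sites with both shares that were not members. All 5475 had a median DMC1 of 93.6 and H3K4me3 of 10.9, and their median log2 ratio, 3.16, was nearer to that of the members. In H3K4me3 the one-homologue classes lay on opposite sides of the members. Members were lower than B6-only sites by 0.24 on the log2 scale, on 19 of 19 autosomes, and higher than CAST-only sites by 0.51, on 17 of 19. The pooled difference of -0.05 is a mixture of these, and its sign turned with the choice of sites, to 0.18 with a window of 0.4 to 0.6.

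Compared with the 3160 sites of the humanized allele that met the same conditions, the members were stronger. Median DMC1 was 90.9 against 67.97, a log2 difference of 0.42 or 1.34-fold, and median H3K4me3 was 15.5 against 14.2, a log2 difference of 0.12. The direction held on 17 of 19 autosomes for DMC1 and on 13 for H3K4me3. The log2 ratio was higher by 0.26, or 1.20-fold, on 19 of 19 autosomes, from 0.05 on chromosome 7 to 0.38 on chromosome 15. Within bins of H3K4me3 it was higher by 0.25. Among the stronger 50% of autosomal sites by DMC1, the H3K4me3 difference became -0.012 and the DMC1 difference 0.18. This cut is made on DMC1 itself and so bounds it from below in both classes.

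The strongest members show the top of the range. The one with the highest DMC1 lay 6.69 kb outside Plrg1, a spliceosome component (chromosome 3, 83078979; DMC1 1139), and leaned to B6 to the same extent in both marks, with shares of 0.668 and 0.670. The second and the third lay inside Bach2, a transcription factor gene of lymphocytes (chromosome 4, 32573877; DMC1 1128), and Usp6nl (chromosome 2, 6409938; DMC1 1106, shares 0.50 and 0.510). The fourth lay inside Auts2, a gene of brain development (chromosome 5, 132499324), with DMC1 1026, H3K4me3 33.9 and shares of 0.484 and 0.492. Next came Atp2b1, a calcium pump of the plasma membrane (chromosome 10, 98960400; DMC1 991), and Cadps2, which acts in vesicle release (chromosome 6, 23597400; DMC1 956). The seventh lay 5.90 kb outside Trip13, an ATPase that strips HORMAD proteins from synapsed chromosome axes in meiosis (chromosome 13, 73906546; DMC1 948, H3K4me3 55.5). The other 3 of the 10 lay 33.4 kb from Lgalsl (DMC1 933) and inside Dop1b (931) and Vps13b (891). The 10 strongest had DMC1 shares of 0.387 to 0.698 and H3K4me3 shares of 0.467 to 0.674, so not all of them were near 0.5. Their ratios, which the choice by DMC1 raises, were 17.1 to 31.2.

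Median DMC1 was highest, at 381, in the top of the 10 equal groups of members by H3K4me3. The single members with the highest H3K4me3 were still not those with the highest DMC1. The maximum, 128, was inside Mapkap1, a subunit of the TORC2 kinase complex (chromosome 2, 34498673), with DMC1 606 and shares of 0.497 and 0.534. The second, 114, lay between genes 173 kb from Adcyap1, a neuropeptide gene (chromosome 17, 93379710), where DMC1 was only 149.6. The others were 4.68 kb from Tbc1d23 (H3K4me3 107, DMC1 684), inside Fads2, a fatty acid desaturase (107 and 255), and inside Megf11 (105 and 572). None of these 5 was among the 10 strongest by DMC1, and their ratios, which the choice by H3K4me3 lowers, ran from 1.32 to 6.40.

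Among members with H3K4me3 above their median, the ratio ran from 0.353 to 31.96. The highest was inside Diaph3, an actin-nucleating formin (chromosome 14, 86806839; DMC1 639, H3K4me3 19.99), followed by the site near Plrg1 (31.2), a site inside Rdh10, a retinol dehydrogenase (chromosome 1, 16113584; 30.6), the site in Auts2 (30.3) and a site 924 kb from Adgrl4 (29.96). The lowest lay 631 kb from Lrriq3 (chromosome 3, 155825623), with DMC1 18.02 at an H3K4me3 of 51.1. The sites inside Dpp10, a potassium channel partner (ratio 0.553), and Fhit, a gene of a common fragile site (0.573), were also among the 5 lowest. Shares were in the same part of the window at both ends, with DMC1 shares of 0.428 to 0.668 at the 5 highest and 0.404 to 0.652 at the 5 lowest.

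Within the window, DMC1 leaned towards the CAST homologue relative to H3K4me3. The median DMC1 share was 0.465 (quartiles 0.397 and 0.540) and the median H3K4me3 share 0.511 (0.462 and 0.561). At 3275 of 5016 members, 65.3%, the B6 share was lower in DMC1 than in H3K4me3 (exact 95% interval 64.0% to 66.6%), and at 1721 it was higher. Over all 21406 autosomal sites with both shares it was lower at 56.3%. The median difference was -0.038, and it was the same sign with the window set on the H3K4me3 share alone (-0.047, 64.4% lower, 6640 sites). It was lower at more than 50% of members on 19 of 19 autosomes, from 58.8% on chromosome 14 to 71.3% on chromosome 19. It held in the lowest of 10 groups by H3K4me3 (62.5%) and in the highest (60.96%). At symmetric HUM sites it was lower at 68.2% (66.6% to 69.8%), and in the highest of these ranges of H3K4me3 at 76.8% (71.2% to 81.7%).

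The Spearman correlation of the shares was 0.318 among members, whose choice limits both shares and so lowers it, and 0.847 over all CAST sites with both shares. At members with an H3K4me3 share of 0.30 to 0.35 the median DMC1 share was 0.404, and at 0.65 to 0.70 it was 0.541. Members with DMC1 under and H3K4me3 over 0.5 numbered 1392 (27.8%), and those with the opposite order 511 (10.2%). In 961 members both shares lay from 0.45 to 0.55, and these were stronger than the whole set, with a median DMC1 of 125 and H3K4me3 of 19.997. The 349 whose shares differed by over 0.2 were weaker (47.3 and 9.25). The median ratio was 6.46 in the first of these groups and 5.33 in the second.

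**Figure D3:**
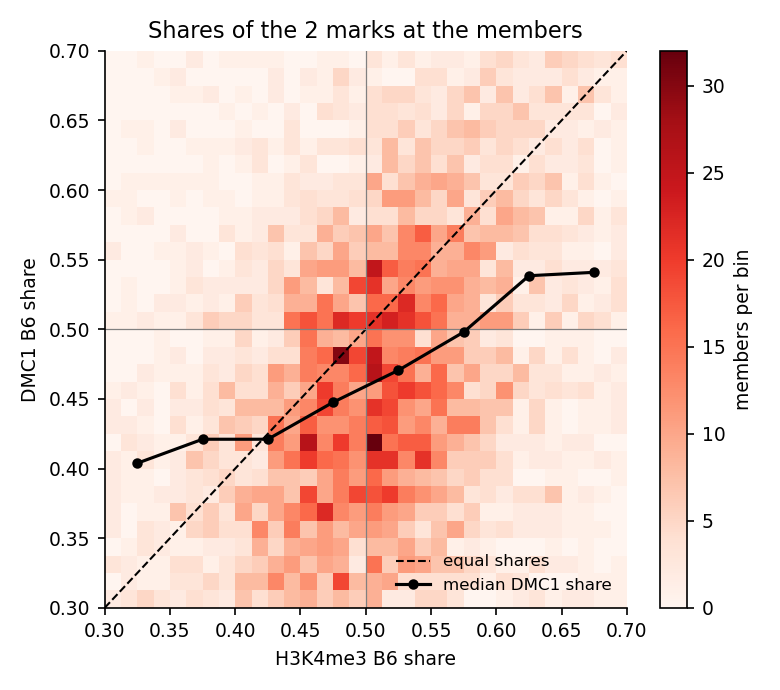
DMC1 B6 share against H3K4me3 B6 share at the symmetric CAST sites, shaded by the number of members in a bin, with the line of equal shares (dashed) and the median DMC1 share in steps of H3K4me3 share (points). From the step that begins at an H3K4me3 share of 0.4 upwards the medians lie below the dashed line, and 65.3% of members lie below it.

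Of the 6 members at the extremes of the difference, 5 had DMC1 below the members' median, and that inside Gm7247 was just above it. The DMC1 share was highest above the H3K4me3 share inside Gm7247 (0.6875 against 0.333; DMC1 91.6), and lowest below it inside Tdrd7, a gene of germ granules (0.30 against 0.697; DMC1 13.2, H3K4me3 6.88). Both shares were 0.50 inside Sh3tc2, Lama2 (a laminin subunit of muscle) and Igsf5 and near Ppp2r2b and Dcn, with DMC1 of 21.97 to 62.5. The limits of the window fell in a continuous distribution. At the lower limit 18 members had a DMC1 share of exactly 0.3 and the nearest site outside had 0.2996, and at the upper limit 6 had exactly 0.7 and the nearest outside had 0.7002. The 3 sites just outside the lower limit had DMC1 of 184 to 217, and the 3 strongest of those on it 83.8 to 154. With 3 sites on each side, chosen in different ways, these values cannot show whether strength steps at the limit. The 266 members with a share of exactly 0.5 in either mark had a median DMC1 of 44.0, against 90.9 for all members. Whether low read numbers give such exact shares was not tested. For the H3K4me3 share, 7 sites stood on each limit, and the nearest outside had 0.2917 and 0.7018.

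Autosomes differed in how many of their CAST sites were symmetric. The percentage was highest on chromosome 2 (437 of 795 sites, 54.97%, exact 95% interval 51.4% to 58.5%) and lowest on chromosome 19 (108 of 270, 40.0%, 34.1% to 46.1%). The intervals of chromosomes 3, 10, 18 and 19 lay below the overall 47.8% and that of chromosome 2 above it. These intervals cover counting error only. The median DMC1 of members ran from 83.8 (chromosome 3) to 100.03 (chromosome 18). H3K4me3 medians ran from 11.2 on chromosome 3 to 18.7 on chromosome 2, and the median ratio from 5.31 on chromosome 11 to 7.49 on chromosome 3.

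**Figure D4:**
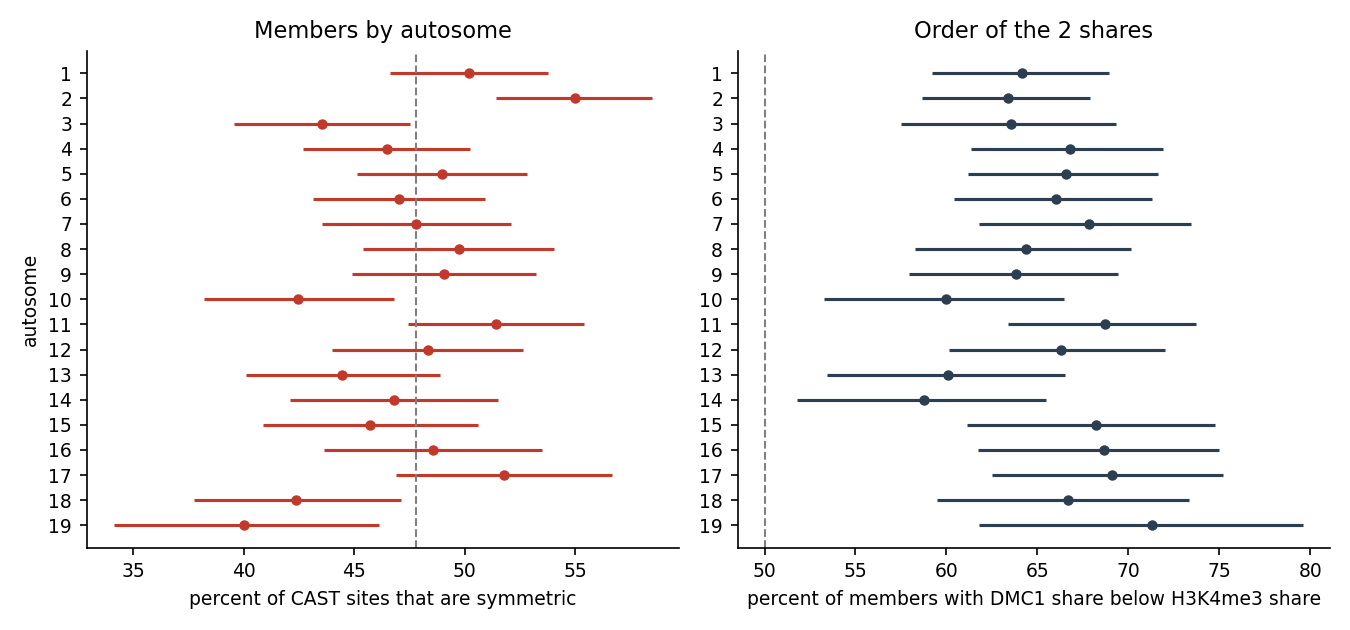
Left: percent of CAST sites with both shares that were symmetric, by autosome, with exact 95% binomial intervals and the overall value (dashed). Right: percent of members whose DMC1 share lay below their H3K4me3 share, with the same intervals and a line at 50%. Chromosome 2 is highest at the left with 54.97%, and all 19 autosomes are above 50% at the right.

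Along the chromosomes, members near the centromere had more DMC1 for their H3K4me3. Mouse autosomes are numbered from the centromere, and each was divided into 5 equal parts up to its last site. The median ratio was 7.50 in the first part (795 members), then 6.59, 6.03, 5.73 and 5.83 in the last (1133). The first part exceeded the last by 0.36 on the log2 scale, or 1.29-fold, and by 0.36 at matched H3K4me3. The order held on 16 of 19 autosomes, with chromosomes 3, 16 and 17 as the exceptions. DMC1 medians were 102 in the first part and 81.5 in the last, and H3K4me3 medians 13.99 and 14.99. Over all autosomal sites the same difference was 0.24, held on 13 of 19 autosomes. At symmetric HUM sites it was 0.28, on 12 of 19, and at one-homologue CAST sites 0.13, on 11 of 19. Whether these classes differ in it was not tested. The percentage of CAST sites that were symmetric was 46.1% in the first part, 49.9% in the fourth and 45.4% in the last.

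**Figure D5:**
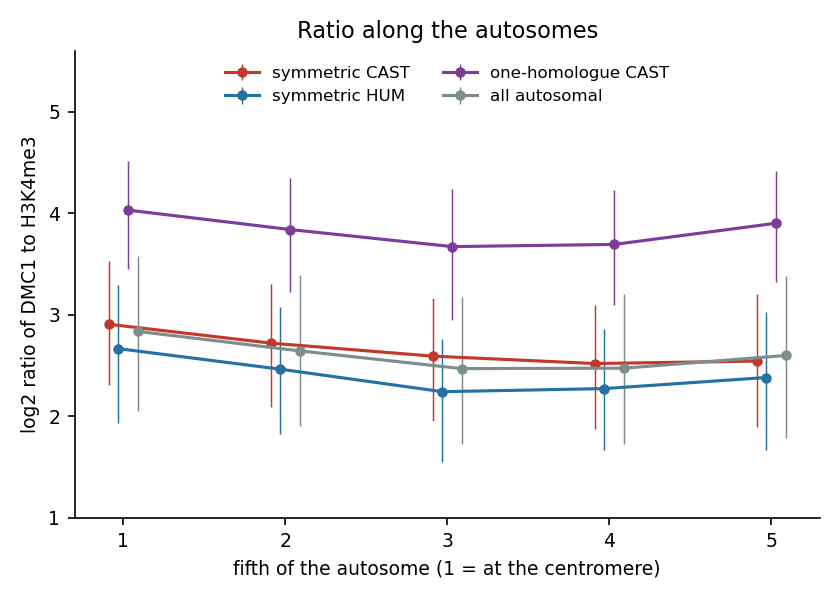
Median log2 ratio of DMC1 to H3K4me3 in 5 equal parts of the autosome, counted from the centromere, for symmetric CAST, symmetric HUM, one-homologue CAST and all autosomal sites. Bars run from the lower to the upper quartile of the sites; the symmetric CAST medians correspond to ratios of 7.50 in the first part and 5.83 in the last.

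The members' share inside protein-coding genes was close to that of all autosomal sites. It was 54.98% (exact 95% interval 53.6% to 56.4%) against 53.9% over all autosomal sites. Of the 5475 CAST sites with both shares that were not members, 49.4% (48.1% to 50.7%) were inside a gene, and at symmetric HUM sites it was 58.7% (56.99% to 60.5%). Members exceeded the other CAST sites on 17 of 19 autosomes and in 8 of 10 groups by H3K4me3. Exons and introns were not assigned here. The nearest other hotspot of any class was at a median of 29.2 kb (quartiles 12.3 and 62.9), and at 452 members (9.01%) it was under 5 kb away. It was a CAST site for 54.5% of members and a HUM site for 37.3%. The non-member CAST sites had close values, a median of 29.98 kb, 9.64% under 5 kb, and a CAST neighbour at 53.6%.

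Members fell in 2135 of 21627 protein-coding genes, with a single member in 1673 and 3 or more in 142. That total includes genes on the X, where the conditions allow no member. Auts2 held the most, 8 of its 15 CAST sites with both shares, with DMC1 from 26.8 to 1026 (median 286). Dab1, which acts in the reelin pathway of neuronal migration, held 7, with DMC1 of 15.9 to 481. Camta1, Csmd1, Ctnnd2, Grip1 and Zfand3 held 6 each, and Alk, Aopep and Esrrg 5 each. These are mostly long genes, but Zfand3 spans only 206 kb (chromosome 17, 30005039 to 30210823) and so held 29.2 members per Mb, against 3.65 in Csmd1. In Zfand3 the members' DMC1 ran from 45.9 to 463. In Esrrg, a nuclear receptor gene, all 5 members were strong, from 156 to 468.

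Genes of meiotic recombination were looked at by list, with 5 kb on each side. Of 35 genes of break formation and repair, 17 held a site of any class and 5 held a total of 7 members. Over all 21627 protein-coding genes with the same reach, X genes included, 37.1% held a site of any class and 11.6% held a member. The counts of the lists are given as places only. The strongest was inside Rad50, a subunit of the MRE11 complex that processes break ends (chromosome 11, 53699534; DMC1 539, H3K4me3 43.1, shares 0.533 and 0.536). Hsf2bp, which helps bring BRCA2 to meiotic breaks, held 3, the strongest with DMC1 362 and shares of 0.464 and 0.534 (chromosome 17, 32027050). Meiob, a single-stranded DNA binding protein of meiosis, held 1 with DMC1 80.6. Hfm1, a helicase of crossover formation, held 1 with 41.6, and Mei1, needed for break formation, 1 with 35.8. Of 15 genes listed for the axis and the synaptonemal complex, with Trip13 for its action on the axis, 6 held a site of any class and 0 held a member.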

How the data were processed

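DMC1 ChIP-seq, H3K4me3 ChIP-seq and MNase-seq libraries of testis, 1 each, make up the series. Reads were aligned to mm10 with BWA (0.7.15 for the H3K4me3 and MNase libraries), per the submitters' processing notes. Per the file headers, the authors combined both marks in 1 table of DMC1 peaks. Its DMC1 and H3K4me3 columns are signal, an intensity estimated by their peak callers, and the sources used here do not say how it was scaled to depth. The deposited B6 share is a fraction, signal on B6 over signal on both homologues. Depth is unknown, so the counting error of single sites could not be given.

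From these values classes, medians, log2 ratios without a pseudocount and exact Clopper-Pearson intervals were computed (Python 3.11.15, pandas 2.3.3, scipy 1.17.1). The member count, the differences of log2 ratio and of shares, and the interval of the median were tested on simulated data. The Clopper-Pearson intervals were not. Matched differences used 20 bins of H3K4me3 with at least 5 sites of each class. Gene positions, promoter and microRNA sequences came from RefSeq GRCm38.p6; chromosome 18 had no promoter windows here. Distances to genes are to protein-coding genes. Members were named by rank in DMC1, H3K4me3, ratio and share difference, by closeness to the window's limits and to a share of 0.5, by genes with most members and by gene list. The members and lists were chosen with earlier results of these data known.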

Additional observations from a re-analysis of the deposited data

How the results depend on the processing

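Of 98 alternative values of 15 results, 54 stayed within the main value's 95% interval over sites (for a difference, from the bounds of both medians; for the correlation, Fisher's z; for the count, within 1.5 times), 38 moved and 6 changed sign; none has a replicate check. All sign changes were in H3K4me3. The members minus one-homologue log2 difference, -0.05, was 0.18 with a window of 0.4 to 0.6, -0.18 with 0.2 to 0.8, 0.0095 with sites on PRDM9-independent peaks kept, 0.15 without repeated H3K4me3 values, 0.025 without the lowest 10% by H3K4me3 and 0.41 among the stronger 50% by DMC1; the members minus HUM difference was -0.012 among the stronger 50%. The cut to the stronger 50% is made on DMC1, a compared value, and so bounds it from below in all classes. The cause of the sign changes was not tested.

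With the window of 0.4 to 0.6 there were 2655 members (25.3% of CAST sites), median DMC1 was 111, H3K4me3 18.2, the log2 ratio 2.67, the log2 DMC1 difference from one-homologue sites -1.06, the share difference -0.021 and the DMC1 share lower at 61.96%. With 0.2 to 0.8, 59.8% were members, and medians were 81.3, 14.1 and -0.042 for DMC1, H3K4me3 and the share difference. Keeping sites on PRDM9-independent peaks gave H3K4me3 16.3, a log2 ratio of 2.61 and a Spearman correlation of 0.762. Without repeated H3K4me3 values DMC1 was 168.6, H3K4me3 25.3, the log2 ratio 2.76, the log2 DMC1 difference from one-homologue sites -1.09 and the correlation 0.746. Without the lowest 10% by H3K4me3 DMC1 was 98.5, H3K4me3 16.5 and the correlation 0.785. Among the stronger 50% by DMC1 there were 3059 members, with DMC1 175.1, H3K4me3 23.6, log2 ratio 3.02, correlation 0.678 and 57.4% inside genes; log2 differences were -0.66 (DMC1) and -0.95 (ratio) from one-homologue and 0.18 and 0.16 from HUM sites. With the smallest value added as a pseudocount the log2 ratio was 2.79 and its difference from one-homologue sites -1.08. With the window on the H3K4me3 share alone the share difference was -0.047, and with 5 kb added to genes 60.4% were inside. The DMC1 share was the lower at more than 60% of members, and the ratio below that of one-homologue and above that of HUM sites, in every alternative run. Depth is unknown, so the precision of single shares could not be given. No paired analysis was possible because each assay has 1 library.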

Other observations

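Symmetric sites followed one another along the chromosome slightly more often than they followed other CAST sites. Of 5005 members with a next CAST site that had both shares, 50.3% were followed by another member (exact 95% interval 48.9% to 51.7%), against 45.5% (44.2% to 46.9%) after the 5467 other CAST sites. At gaps under 20 kb the values were 52.9% (48.6% to 57.1%) and 44.3% (40.2% to 48.4%), and at gaps of 500 kb or more 51.97% and 46.6%. Whether the autosomes' unequal percentages enter these values was not tested.

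The members formed 2500 unbroken runs among these CAST sites, 1243 of them of a single site, and 933 members stood in runs of 5 or more. Members were 47.8% of these CAST sites, and whether the runs are longer than in a random order was not tested. The longest runs are given as places only. The longest, 13 members, covered 6828 kb of chromosome 15 (42721069 to 49548640) with Rspo2, a Wnt pathway agonist, and Csmd3, and its DMC1 ran from 14.4 to 382. The next, 12 members over 1903 kb of chromosome 6 (98737946 to 100640859), included the transcription factor gene Foxp1, with a median DMC1 of 166 and H3K4me3 of 21.8. A run of 11 on chromosome 1 (159192907 to 161690084) included the extracellular matrix genes Tnr and Tnn, with a median DMC1 of 94.1 and H3K4me3 of 25.5.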
